A study of Homo sapiens with 6 samples.

Results

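Stem cell and drug efflux genes were followed in 22RV1 cells made to carry either of 2 microRNAs. The set holds 35 genes, given by name, of the 34757 gene names on the array, and a member was any probe that carries 1 of these names. It covers 9 pluripotency and progenitor regulators (NANOG, POU5F1, SOX2, SOX9, KLF4, MYC, LIN28A, LIN28B, TERT), 11 surface and progenitor markers (KIT, KITLG, CD44, PROM1, NES, LGR4, LGR5, ITGA6, ITGB1, CD24, PSCA), 3 ALDH1A enzymes, 7 ATP-binding cassette (ABC) transporters and 5 Notch genes. The members have 52 probes, and 27 of the 35 genes gave a signal that could be tested. For each gene the brightest probe, the one with the highest mean intensity, was taken.

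22RV1 is an established human prostate cancer line that expresses SPINK1. Per the labels, stable lines carried a lentiviral vector for miR-338-5p (pLemiR-338-5p), for miR-421 (pLemiR-421) or for a red fluorescent protein (pLemiR-RFP, the control), and all were kept in RPMI medium with serum and puromycin. Each of 6 two-colour Agilent arrays held control RNA in the Cy3 dye and RNA of a microRNA line in Cy5. There were 3 arrays for miR-338-5p (replicates 1, 2 and 3) and 3 for miR-421 (a pool, and replicates 1 and 2). What the pool combined is not given in the sources used here, nor is whether replicates were separate cultures or clones, so p-values measure only the spread between these samples. No array had the dyes swapped, so a dye effect of a probe cannot be told apart from an effect of the microRNA, and both lines were read against the same kind of control.

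MicroRNAs pair with messenger RNAs and reduce their stability and translation, mostly through the seed, bases 2 to 8 of the mature strand. The mature sequences are shown because the seed sets which transcripts each microRNA can pair with; they come from RefSeq (GRCh38.p14, chromosome 17, bases 81125923 to 81125944, minus strand, and chromosome X, bases 74218392 to 74218414, minus strand), with the seed in capitals.
hsa-miR-338-5p: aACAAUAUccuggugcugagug
hsa-miR-421: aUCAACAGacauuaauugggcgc
The seeds differ, and the DNA letters that pair with them are ATATTGT and CTGTTGA. The first was found in 278 of all 58201 probes (0.478%) and the second in 325 (0.558%), read on the strand of the probe. Neither was found in any of the 52 member probes; the probes are short stretches of each transcript, so this says nothing of the rest of the transcripts.

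POU5F1 (the gene for OCT4), SOX2, KLF4 and MYC are the transcription factors known for reprogramming adult cells to pluripotency. KIT, CD44, PROM1 (CD133), LGR5 and the integrins are surface proteins used to enrich stem-like cells from tissues and tumours, and ALDH1A enzymes, which oxidise retinaldehyde, are used in the same way. ABC transporters use ATP to move substrates, among them drugs, across membranes. Notch receptors are cleaved after a ligand on a neighbouring cell binds, and the freed fragment switches on targets such as HES1 together with the DNA-binding protein RBPJ.

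Spots well above background in Cy3, the control, made up 47.3 to 47.9% on the miR-338-5p arrays and 44.3 to 44.4% on the miR-421 arrays. In Cy5 they made up 41.9% on miR-421 replicate 1 and 46.8 to 48.3% on the other arrays. The part of these differences in the results was not tested. On every array 0 gene spots were saturated. All 10 markers of prostate luminal cells were above background in both dyes on every array. Of 4 basal markers, TP63 and KRT5 were not on any array, while KRT15 was above background in Cy3 on all 6. SPINK1 fell by 3.97 ± 2.47 (log2, mean and SD of 3 arrays; limma adjusted p = 0.0418) in the miR-338-5p line, where the arrays read -3.04, -2.10 and -6.78, and with miR-421 it fell by 6.61 ± 0.44 (0.00776). Of the luminal markers KRT8 was lower in the miR-338-5p line, KRT18 was higher in the miR-421 line, and the neuroendocrine marker CHGA was higher there as well (log2 ratios 1.22, 1.82 and 2.82). ENO2, of the same neuroendocrine list, went the other way and was called lower in both lines. Of markers of other cells, the fibroblast gene LUM (mean 2.14) was higher in the miR-421 line, while the collagens COL1A2 and COL3A1 did not rise above background. The part of these marker changes in the results was not tested.

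In the miR-338-5p line 6 of 27 tested members passed an adjusted p of 0.05 in limma's moderated test against control. SOX2, TERT, KIT, NES and ABCC3 were lower, and PSCA was higher. Among all 19045 genes tested, 9.62% passed, 5.4% lower and 4.23% higher. The members' share was 22.2%, and their median log2 ratio was -0.12 against -0.003 over all genes, with 18 of 27 below 0.
In the miR-421 line 11 of 27 passed (40.7%). POU5F1, TERT, KIT, LGR4, ITGA6, CD24 and ABCC3 were lower, and KLF4, PSCA, NOTCH1 and HES1 were higher. There 23.7% of 19042 genes passed, 13.5% lower and 10.2% higher, so a call in this line was common. The members' median was -0.13 against 0.003 over all genes, and 15 of 27 were below 0.
Counts moved with single arrays. The miR-338-5p count was 1, 2 and 0 without replicate 1, 2 or 3 of that line, and 2 when either the pool or replicate 2 of miR-421 was left out, since all 6 arrays shared an estimate of the spread. The miR-421 count was 3 without the pool, 3 without replicate 1 and 1 without replicate 2. The share of all genes that passed with an array left out is not given here, so these counts do not set the members apart from other genes.

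**Figure D1:**
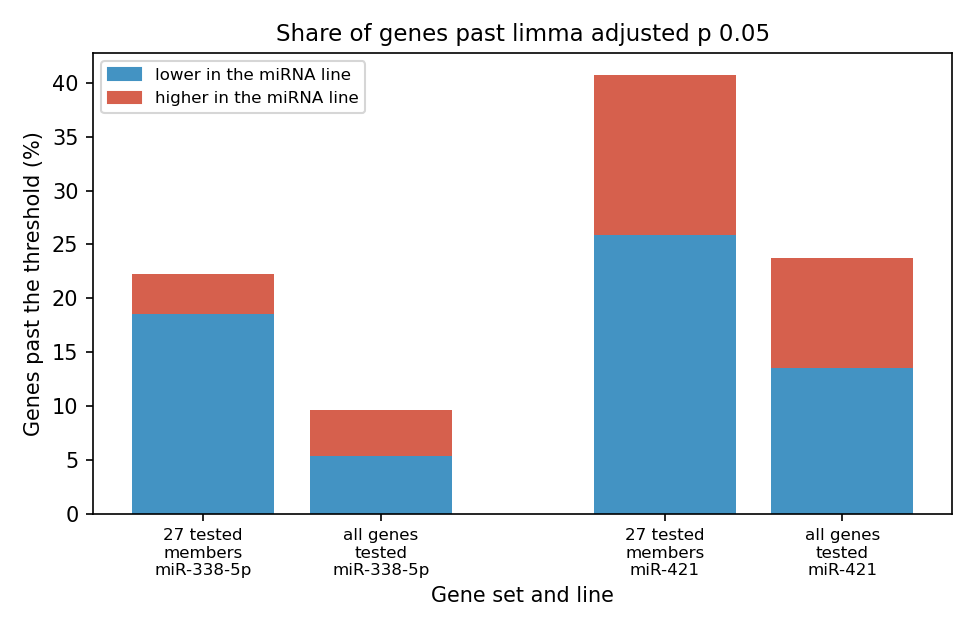
Share of genes past a limma adjusted p of 0.05 (y axis, %) among the 27 tested members and all genes tested, for each line; blue is lower and red is higher in the microRNA line. In the miR-338-5p line 22.2% of members passed against 9.62% of all genes, and in the miR-421 line 40.7% against 23.7%.

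The 2 lines were then set against each other. In limma's test of the difference 1 member, NES, had an unadjusted p under 0.05. The share of all genes with such a p is not given here, so this count does not set the members apart. None of the 27 members passed after adjustment, where 0.0315% of all genes did (6 of 19042). A call in 1 line and none in the other is therefore no shown difference between lines, and the lines' values stand side by side in what follows.

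**Figure D2:**
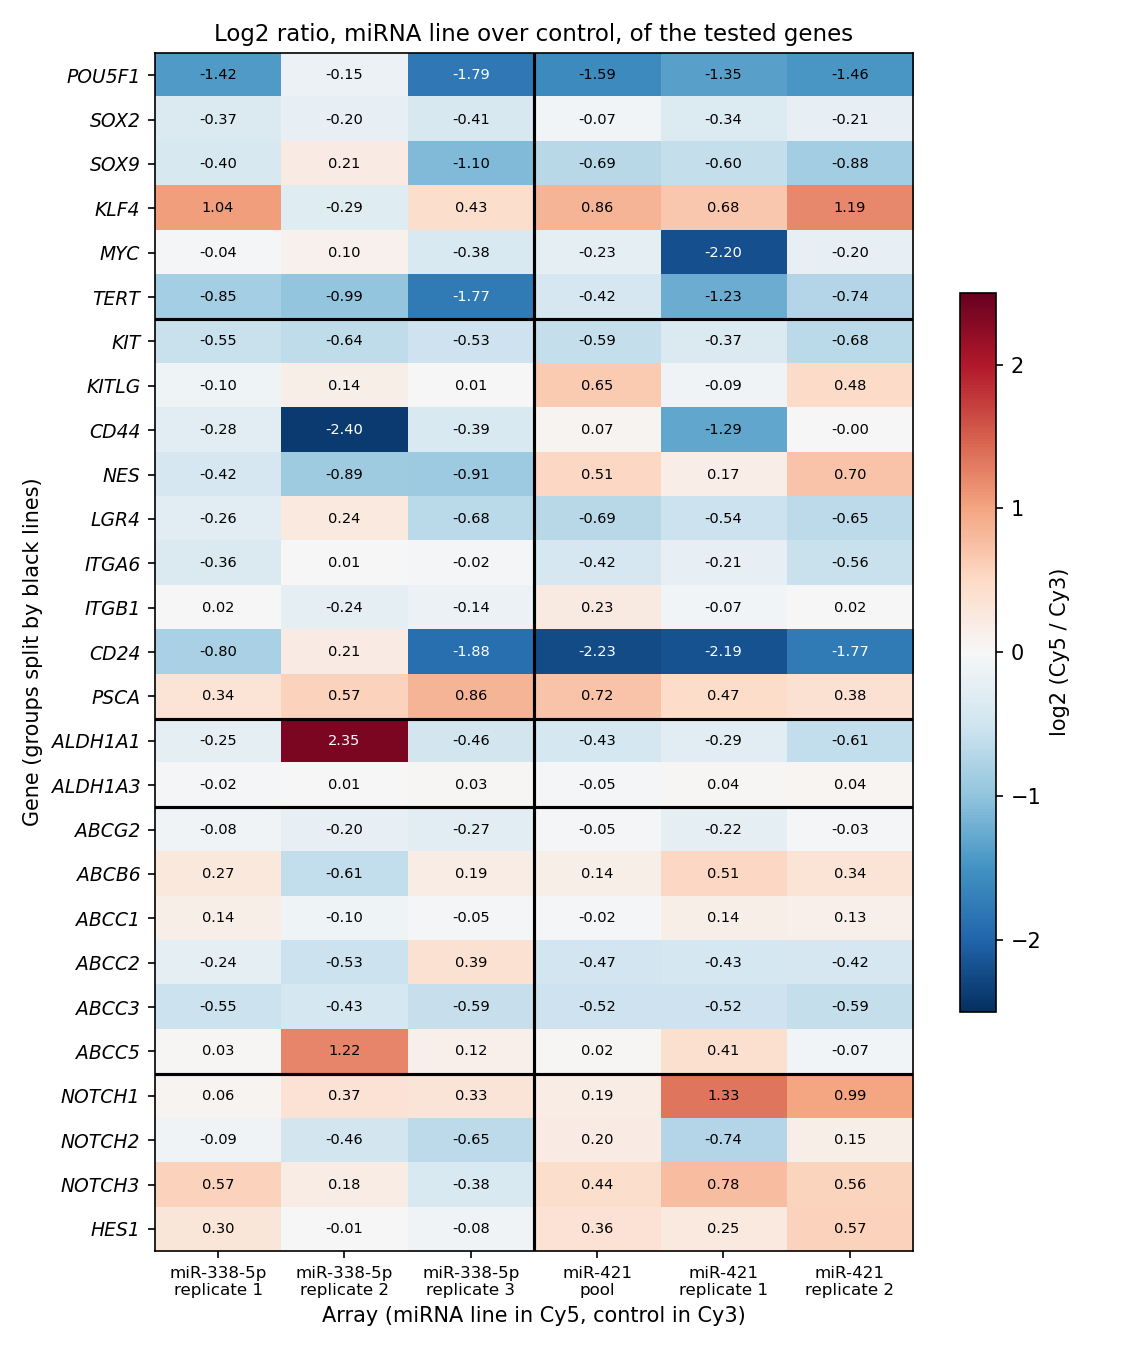
Log2 ratio of microRNA line over control (colour and printed value) for the 27 tested members (rows, in 5 groups split by black lines) on each of the 6 arrays (columns). POU5F1, SOX2, TERT, KIT, ABCG2 and ABCC3 are below 0 on all 6 arrays, and PSCA and NOTCH1 are above 0 on all 6. ALDH1A1 is high (2.35) and CD44 low (-2.40) on the array of miR-338-5p replicate 2.

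Of the pluripotency and progenitor regulators 6 of 9 were tested, with a median log2 ratio of -0.38 in the miR-338-5p line and -0.76 in the miR-421 line. NANOG, LIN28A and LIN28B, the last 2 being RNA-binding proteins that block let-7 maturation, did not rise well above background on any array, whichever dye was read.
POU5F1 had log2 ratios of -1.42, -0.15 and -1.79 on the arrays of miR-338-5p replicates 1, 2 and 3. Its values were -1.59, -1.35 and -1.46 on the miR-421 arrays (pool, replicate 1, replicate 2, the order used throughout). All 6 were below 0, and only replicate 2 of the miR-338-5p line was near it. POU5F1 fell by 1.47 ± 0.12 in the miR-421 line (mean and SD of 3 arrays; 2.76-fold lower; limma adjusted p = 0.0222), while its mean in the miR-338-5p line was -1.12 ± 0.86 (adjusted p = 0.0678). The miR-421 call was lost without any 1 of the 3 miR-421 arrays (adjusted p up to 0.101). The probe lies at chr6:31132178-31132237 (hg19, minus strand). A second POU5F1 probe, over coding sequence and across a splice junction (chr6:31133025-31133368, hg19, minus strand), read -0.21, 0.01 and -0.12 in the miR-338-5p line and -0.20, -0.18 and -0.11 in the miR-421 line, and did not pass in either (limma adjusted p = 0.32 and 0.105). This probe is dim: Cy5 was well above background on 1 of 3 miR-338-5p arrays and on none of the miR-421 arrays, where its value is a bound of at least 1.12-fold lower. On the image software's scale the 2 probes were closer, at -1.68 and -1.42 in the miR-338-5p line and at -2.41 and -2.06 in the miR-421 line. Its sequence is printed because it lies in coding sequence.
POU5F1 junction probe: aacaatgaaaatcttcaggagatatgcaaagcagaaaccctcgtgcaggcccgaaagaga
POU5F1 has near-identical pseudogene copies, and which of them a probe also reads was not tested.

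SOX2, the partner of OCT4 on many enhancers, was at -0.37, -0.20 and -0.41 in the miR-338-5p line and at -0.07, -0.34 and -0.21 in the miR-421 line. It was the member nearest the threshold, with a mean of -0.33 ± 0.11 and a limma adjusted p of 0.04999 in the miR-338-5p line, and it kept that call under 4 of 17 other settings. The call was lost without any 1 array other than miR-421 replicate 1 (adjusted p up to 0.185). The mean in the miR-421 line was -0.21 (adjusted p = 0.0968). SOX2 is a dim probe: its Cy5 signal was well above background on 1 of 3 miR-338-5p arrays and 2 of 3 miR-421 arrays.
SOX9, a regulator of prostate epithelial progenitors, had values of -0.40, 0.21 and -1.10, then -0.69, -0.60 and -0.88. It passed in neither line, at -0.43 (limma adjusted p = 0.287) and -0.72 ± 0.14 (0.0697). As with POU5F1, the array of miR-338-5p replicate 2 was the high one.

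KLF4, a zinc-finger factor of pluripotency and of epithelial differentiation, went the other way. Its log2 ratios were 1.04, -0.29 and 0.43 in the miR-338-5p line and 0.86, 0.68 and 1.19 in the miR-421 line. It rose by 0.91 ± 0.26 in the miR-421 line (SD, n = 3; 1.88-fold; limma adjusted p = 0.0461), and its mean in the miR-338-5p line was 0.39 (adjusted p = 0.362), where the arrays disagreed in sign. The miR-421 call was lost without any 1 miR-421 array and without miR-338-5p replicate 3 (adjusted p up to 0.192). The KLF4 probe lies in coding sequence at chr9:110248049-110248108 (hg19, minus strand) and is printed as the regulator that moved against the others.
KLF4 probe: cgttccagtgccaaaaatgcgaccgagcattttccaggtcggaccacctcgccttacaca

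MYC, a growth-promoting factor and the fourth reprogramming gene, was at -0.04, 0.10 and -0.38, then at -0.23, -2.20 and -0.20. Replicate 1 of the miR-421 line alone was low: its log2 Cy5 level was 10.03 against 11.94 and 12.04 on the other miR-421 arrays, with Cy3 levels of 12.17 to 12.24. MYC passed in neither line, with means of -0.11 (limma adjusted p = 0.897) and -0.88 ± 1.15 (0.163). A dimmer MYC probe read 0.32 on that same array.

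TERT, the reverse transcriptase of telomerase, was below 0 on every array, at -0.85, -0.99 and -1.77 in the miR-338-5p line and at -0.42, -1.23 and -0.74 in the miR-421 line. The 2 sets of values overlapped. TERT fell by 1.21 ± 0.50 in the miR-338-5p line (2.31-fold lower; limma adjusted p = 0.0307) and by 0.80 ± 0.41 in the miR-421 line (1.74-fold lower; 0.0498). The first call was lost without any 1 array other than miR-421 replicate 1 (adjusted p up to 0.0905). The second was lost without any array other than miR-338-5p replicate 3 (up to 0.176). The probe lies at chr5:1253305-1253364 (hg19, minus strand).

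**Figure D3:**
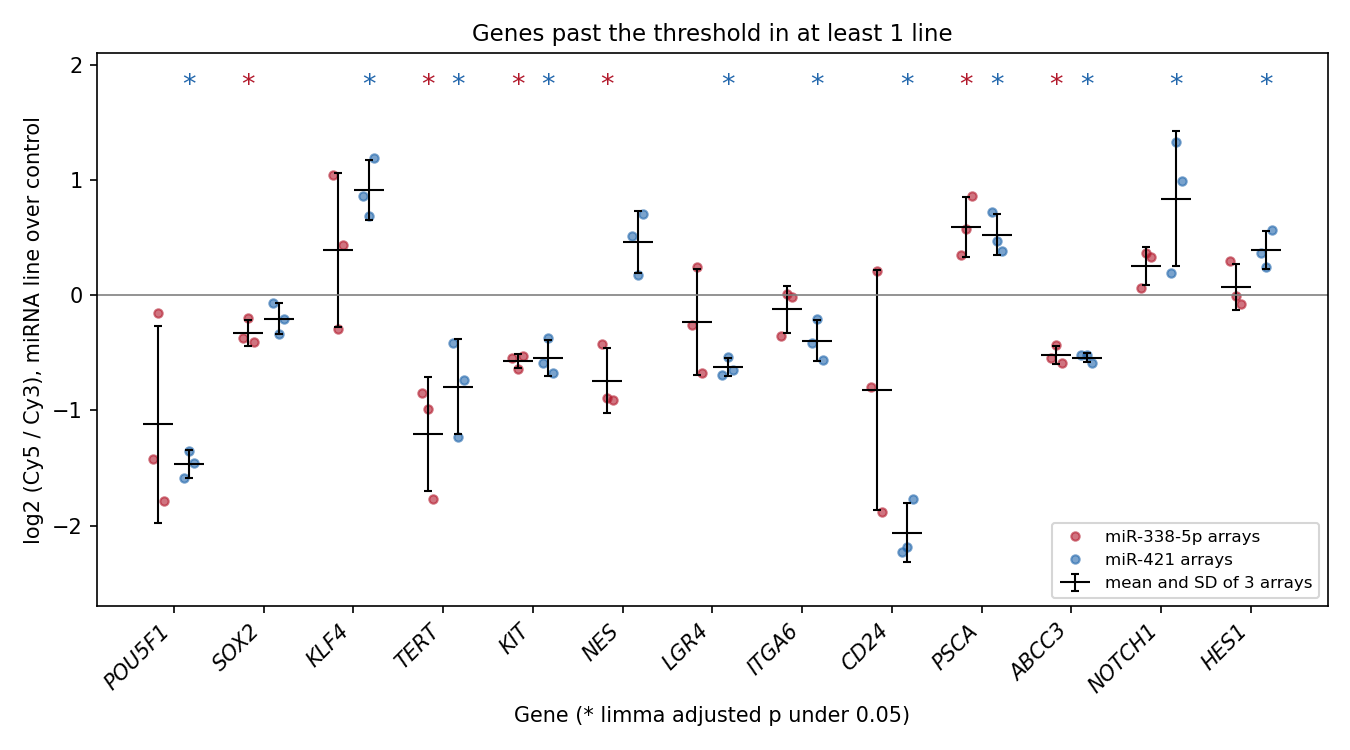
Log2 ratio of microRNA line over control (y axis) for the 13 members past the threshold in at least 1 line; points are single arrays (red miR-338-5p, blue miR-421), bars the mean and SD of 3 arrays, and asterisks mark a limma adjusted p under 0.05. CD24 has the lowest mean, -2.06 in the miR-421 line, and NES lies below 0 on all miR-338-5p arrays and above 0 on all miR-421 arrays.

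Of the surface and progenitor markers 9 of 11 were tested, with medians of -0.23 and -0.40 in the miR-338-5p and miR-421 lines. PROM1 and the Wnt target LGR5 were not well above background on any array.
KIT, the receptor tyrosine kinase for stem cell factor, had log2 ratios of -0.55, -0.64 and -0.53, then -0.59, -0.37 and -0.68. It was lower on all 6 arrays, with little spread on this scale. That spread is not well measured, since Cy5 was not well above background on most arrays. On the image software's scale the 6 arrays ran from -2.1 to -4.7. KIT fell by 0.57 ± 0.06 in the miR-338-5p line (limma adjusted p = 0.0144) and by 0.55 ± 0.16 in the miR-421 line (0.00845). Its Cy5 signal was well above background on 2 of 3 miR-338-5p arrays and on none of the miR-421 arrays, so for miR-421 the measured size is a bound of at least 1.45-fold lower. The bound sets the control signal against the measured Cy5 level, or against the dimmest signal still called above background where that was higher. It therefore lies close to the measured fold (1.46 for KIT in the miR-421 line) and depends on the same offset. The miR-338-5p call was lost without any 1 array of that line (adjusted p up to 0.0602), and the miR-421 call without miR-421 replicate 2 (0.0591). The probe is at chr4:55606511-55606570 (hg19), and 2 other KIT probes were too dim to test.
KITLG, which encodes stem cell factor, the ligand of KIT, did not pass. Its values were -0.10, 0.14 and 0.01, then 0.65, -0.09 and 0.48 (means 0.02 and 0.35; limma adjusted p = 0.956 and 0.132).

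CD44, the hyaluronan receptor, was at -0.28, -2.40 and -0.39 in the miR-338-5p line and at 0.07, -1.29 and 0.00 in the miR-421 line. A single array stood low in each line: replicate 2 of miR-338-5p and replicate 1 of miR-421. CD44 passed in neither, with means of -1.02 ± 1.19 (limma adjusted p = 0.231) and -0.41 ± 0.77 (0.58). A second CD44 probe, for another transcript, stayed between -0.18 and 0.04 on all 6 arrays.

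NES encodes nestin, an intermediate filament protein of neural and other progenitors. Its log2 ratios were -0.42, -0.89 and -0.91 in the miR-338-5p line and 0.51, 0.17 and 0.70 in the miR-421 line, with no overlap between lines. NES fell by 0.74 ± 0.28 in the miR-338-5p line (1.67-fold lower; limma adjusted p = 0.0313), and its mean in the miR-421 line was 0.46 ± 0.27 (0.0586). The difference between lines was -1.21 ± 0.19 (SE), with an adjusted p of 0.103 that missed the threshold. The miR-338-5p call was lost without any 1 array other than miR-421 replicate 1 (adjusted p up to 0.127). A second NES probe read -0.33, -0.42 and -0.36, then 0.04, -0.10 and 0.69, and passed in neither line. The first probe lies at chr1:156638841-156638900 (hg19, minus strand).

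LGR4, a receptor for R-spondins that strengthens Wnt signalling, was at -0.26, 0.24 and -0.68, then at -0.69, -0.54 and -0.65. It fell by 0.63 ± 0.08 in the miR-421 line (1.54-fold lower; limma adjusted p = 0.0428) and averaged -0.23 in the miR-338-5p line (0.421). The call was lost without any 1 miR-421 array and without miR-338-5p replicate 1 (up to 0.159).
ITGA6, the laminin-binding integrin subunit alpha 6, was at -0.36, 0.01 and -0.02, then at -0.42, -0.21 and -0.56. It fell by 0.40 ± 0.18 in the miR-421 line (limma adjusted p = 0.0404), where its Cy5 signal was not well above background on any array and the bound is at least 1.28-fold lower. The miR-338-5p mean was -0.12 (0.501), with Cy5 well above background on all 3 arrays. The call was lost without any 1 array other than miR-338-5p replicate 1 (up to 0.179).
Its partner ITGB1, integrin beta 1, passed in neither line (means -0.12 and 0.06; limma adjusted p = 0.396 and 0.648).

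CD24, a mucin-like surface protein, had the lowest mean among the tested members on this scale. It was at -0.80, 0.21 and -1.88 in the miR-338-5p line and at -2.23, -2.19 and -1.77 in the miR-421 line. The miR-421 arrays lay together, while the miR-338-5p arrays ran from above 0 to nearly the miR-421 values. CD24 fell by 2.06 ± 0.26 in the miR-421 line (4.17-fold lower; limma adjusted p = 0.016), and its mean in the miR-338-5p line was -0.83 ± 1.04 (0.207). The call was lost without any 1 miR-421 array (adjusted p up to 0.0732). The array annotation places the probe on chromosome Y (bases 21152667 to 21152726, hg19), where a near-identical copy lies, whereas RefSeq (GRCh38) places CD24 on chromosome 6; which copy was read was not tested.

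PSCA, prostate stem cell antigen, a surface protein anchored to the membrane by a lipid, was the marker that rose. Its log2 ratios were 0.34, 0.57 and 0.86, then 0.72, 0.47 and 0.38, all above 0. PSCA rose by 0.59 ± 0.26 in the miR-338-5p line (1.51-fold; limma adjusted p = 0.0342) and by 0.52 ± 0.18 in the miR-421 line (1.44-fold; 0.0272). The first call was lost without any 1 array other than miR-421 replicate 1 (up to 0.116), and the second without any 1 miR-421 array (up to 0.1003).

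Of the ALDH1A enzymes, ALDH1A2 was not well above background on any array. ALDH1A1 had log2 ratios of -0.25, 2.35 and -0.46, then -0.43, -0.29 and -0.61. The array of miR-338-5p replicate 2 was high and the other 5 were below 0: its log2 Cy5 level was 8.91, against 5.89 to 6.19 on the other arrays. ALDH1A1 passed in neither line, with means of 0.55 ± 1.57 (limma adjusted p = 0.569) and -0.44 ± 0.16 (0.588). Without that array the miR-338-5p mean was -0.35 (adjusted p = 0.153), so its sign rested on 1 array. The probe covers the end of the coding sequence at chr9:75516136-75516195 (hg19, minus strand) and is printed because this array stood apart on it.
ALDH1A1 probe: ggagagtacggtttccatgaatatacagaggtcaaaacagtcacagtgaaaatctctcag
A dimmer ALDH1A1 probe read 0.22 on the same array. ALDH1A3 was tested only through a probe for a non-coding transcript record, at 0.00 and 0.01; its probe for the coding transcript was too dim.

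**Figure D4:**
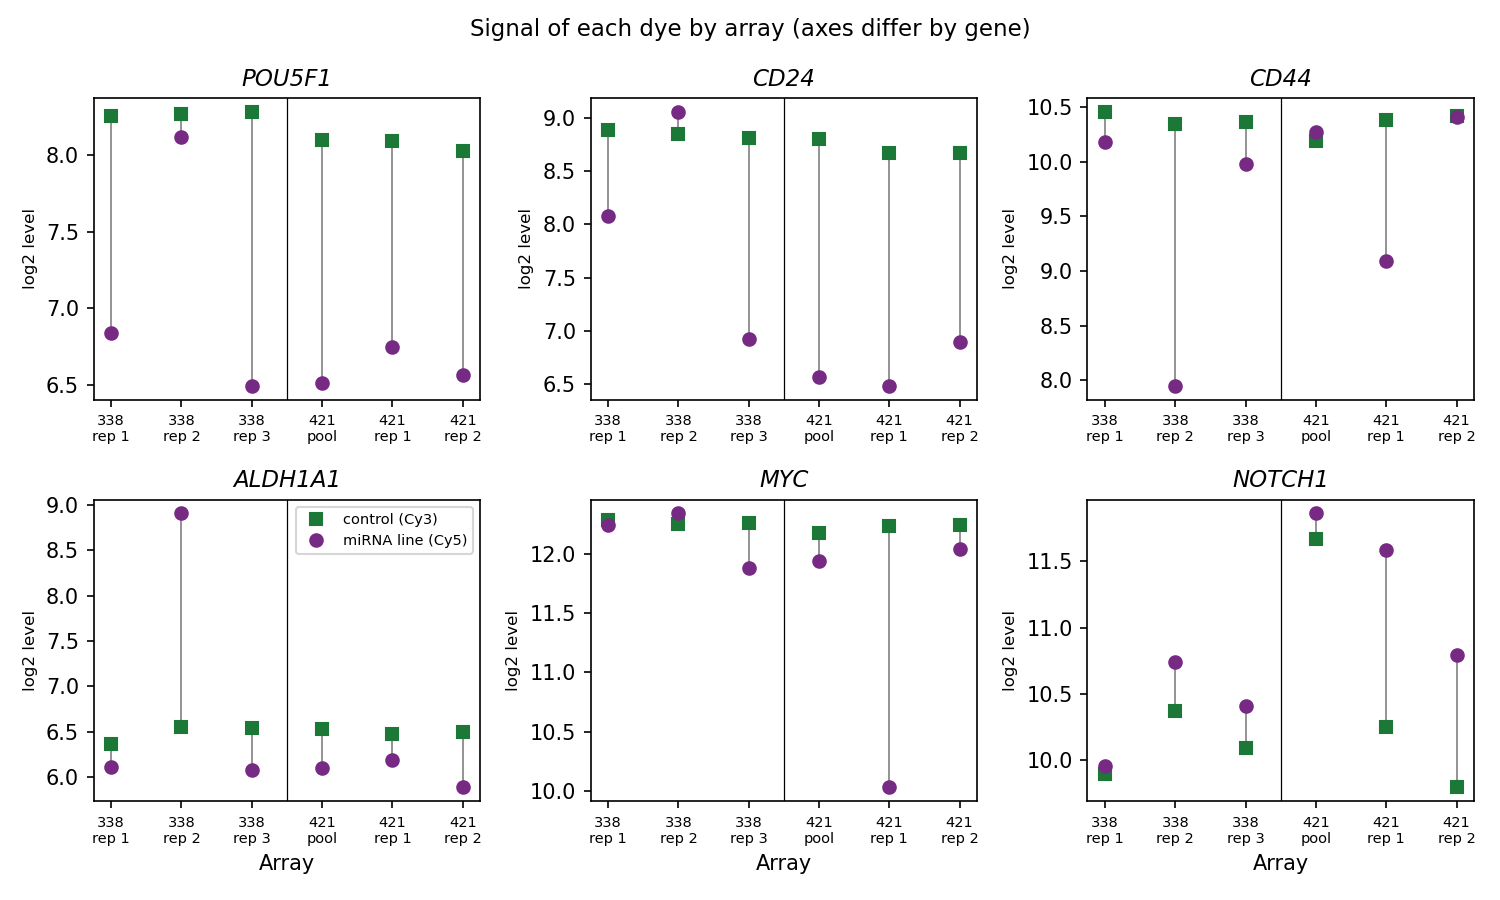
Log2 level of control RNA (green squares, Cy3) and microRNA-line RNA (purple circles, Cy5) on each array (x axis) for 6 members; y axes differ by gene. For ALDH1A1 and CD44 the Cy5 level of miR-338-5p replicate 2 stands apart (8.91 and 7.95), for MYC that of miR-421 replicate 1 (10.03), and for NOTCH1 the Cy3 level on the miR-421 pool array (11.67).

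Replicate 3 of the miR-338-5p line lay lower than the others over the members: their median log2 ratio was -0.38 there and -0.10 on each of the other 2 arrays, and it was the lowest of its line for 14 of 27 members (6 and 7 for replicates 1 and 2) and the highest for 4. Of the 27 tested members, the array farthest from the median of its line was replicate 1, 2 or 3 of miR-338-5p for 9, 11 and 7 members, and the pool, replicate 1 or replicate 2 of miR-421 for 9, 12 and 6. Replicate 2 of the miR-338-5p line was far off for ALDH1A1, CD44 and POU5F1, which were picked out after their values were seen. For CD24 no single array of that line stood apart: replicate 2 (0.21) and replicate 3 (-1.88) lay on either side of replicate 1 (-0.80).

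Of 7 ABC transporters 6 were tested, and 1 of them, ABCC3, passed in both lines. ABCB1 (P-glycoprotein, the best known multidrug pump) did not rise well above background in Cy3 or Cy5 on a single array.
ABCC3, which exports organic anions and bile acid conjugates, had log2 ratios of -0.55, -0.43 and -0.59, then -0.52, -0.52 and -0.59. It was lower on all 6 arrays, by nearly the same amount on this scale. ABCC3 fell by 0.52 ± 0.08 in the miR-338-5p line (limma adjusted p = 0.00949) and by 0.54 ± 0.04 in the miR-421 line (0.0048). Control signal was well above background on all 6 arrays and Cy5 signal on none, so these are bounds, of at least 1.42-fold and at least 1.44-fold lower. The small spread, on which the p-values rest, is not well measured either. On the image software's scale the 6 arrays ran from -2.4 to -4.5. The miR-421 call held under all 17 other settings run, and the miR-338-5p call was lost without replicate 3 of that line (0.0517). The probe is at chr17:48768701-48768760 (hg19).
ABCG2, the breast cancer resistance protein and the pump behind the side population assay, was below 0 on all 6 arrays, at -0.08, -0.20 and -0.27, then -0.05, -0.22 and -0.03. It did not pass (means -0.18 and -0.10; limma adjusted p = 0.139 and 0.328).
ABCC2, a relative of ABCC3 on apical membranes, was at -0.24, -0.53 and 0.39, then at -0.47, -0.43 and -0.42. Its miR-421 values were tight at -0.44 ± 0.03 but did not pass in limma (adjusted p = 0.106), since the spread was shared with the miR-338-5p arrays. Its Cy5 signal was well above background on only 1 of 3 miR-421 arrays, so neither the size nor the tight spread is well measured. On the image software's scale the miR-421 mean was -1.91.
ABCC1, a broad-range exporter, averaged 0.00 and 0.08 (limma adjusted p = 0.991 and 0.425). ABCB6, a porphyrin transporter, was at 0.27, -0.61 and 0.19, then at 0.14, 0.51 and 0.34 (adjusted p = 0.897 and 0.231). ABCC5, an exporter of cyclic nucleotides, was at 0.03, 1.22 and 0.12, then at 0.02, 0.41 and -0.07 (0.287 and 0.764). On these probes of both genes replicate 2 of the miR-338-5p line was the array farthest from the rest. A second ABCC5 probe, well above background on all 6 arrays, read 0.04, 0.86 and 0.78, then 0.01, -0.46 and -0.18. On it replicate 3 of miR-338-5p was nearly as high as replicate 2, and the miR-421 mean was -0.21. It passed in neither line (limma adjusted p = 0.104 and 0.435).

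Of the 5 Notch genes 4 were tested, with medians of 0.10 in the miR-338-5p line and 0.49 in the miR-421 line, and the ligand JAG1 was not well above background on any array. No Notch member passed in the miR-338-5p line, and NOTCH1 and HES1 passed in the miR-421 line.
NOTCH1 was at 0.06, 0.37 and 0.33, then at 0.19, 1.33 and 0.99. It rose by 0.84 ± 0.58 in the miR-421 line (1.79-fold; limma adjusted p = 0.0381), and its mean in the miR-338-5p line was 0.25 (0.502). The pool was the low array of the miR-421 line, and there the control's log2 Cy3 level was 11.67 against 9.80 to 10.37 elsewhere. The call was lost without any 1 array other than the pool (adjusted p up to 0.161). A second NOTCH1 probe gave the opposite sign, at -0.26, -0.24 and -0.13 in the miR-421 line, and passed too (adjusted p = 0.0413), so the direction of NOTCH1 depended on the probe. With its probes averaged, NOTCH1 was at 0.32 in the miR-421 line and missed the threshold (limma adjusted p = 0.0986), and in the authors' deposited table its mean there was 0.10. The brighter probe ends at the stop codon (chr9:139390523-139390582, hg19, minus strand) and is printed because of that disagreement.
NOTCH1 brighter probe: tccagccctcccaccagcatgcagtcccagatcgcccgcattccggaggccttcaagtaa
NOTCH2 was at -0.09, -0.46 and -0.65, then at 0.20, -0.74 and 0.15, and passed in neither line (means -0.40 and -0.13; limma adjusted p = 0.273 and 0.69). A second NOTCH2 probe was below 0 on all 6 arrays, at -0.63, -0.16 and -0.45, then -0.08, -0.32 and -0.39. It passed in neither line (limma adjusted p = 0.0652 and 0.124). NOTCH3 was at 0.57, 0.18 and -0.38, then at 0.44, 0.78 and 0.56. Its miR-421 mean of 0.60 ± 0.17 missed the threshold (adjusted p = 0.0583), and its miR-338-5p arrays differed in sign.

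HES1, a repressor that is a classic Notch target, was at 0.30, -0.01 and -0.08, then at 0.36, 0.25 and 0.57. It rose by 0.39 ± 0.16 in the miR-421 line (1.31-fold; limma adjusted p = 0.0377), and its miR-338-5p mean was 0.07 (0.705). The call was lost without any 1 array other than miR-338-5p replicate 1 (up to 0.168). The HES1 promoter is printed because HES1 is the known Notch target among the members: the 250 bases before the start of the gene (chr3:194135898-194136147, GRCh38.p14, plus strand, RefSeq), with the 1 match to GTGGGAA in capitals, starting 85 bases before the start.
HES1 promoter: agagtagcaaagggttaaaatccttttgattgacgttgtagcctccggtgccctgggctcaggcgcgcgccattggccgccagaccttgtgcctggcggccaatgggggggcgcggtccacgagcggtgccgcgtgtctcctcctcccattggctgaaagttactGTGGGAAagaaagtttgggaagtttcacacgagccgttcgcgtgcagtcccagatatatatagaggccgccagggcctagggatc
Promoter windows of 27 of the 35 members were found in the RefSeq table. GTGGGAA, or TTCCCAC on the other strand, was in 3 of them (ABCC5, HES1, TERT) and in 5.43% of all 35116 windows. The E-box CACGTG, the letters bound by MYC, was in 4 (ITGA6, ABCB6, TERT, KLF4) and in 6.34% of all. The octamer ATGCAAAT, or ATTTGCAT, bound by POU factors, was in 3 (ABCB6, ALDH1A1, LGR4) and in 1.63%. A match is a description of letters, not of binding.

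The size of these changes depended on the scale. Adding an offset to dim signals keeps ratios of dim probes small, and the image software's own log ratio, as deposited by the authors in log10 and turned into log2, gave larger values for the dim members. On that scale ABCC3 was at -3.40 and -4.12, KIT at -2.73 and -3.43, and ITGA6 at -3.50 in the miR-421 line. In the authors' deposited table the means were nearer 0, with ABCC3 at -1.82 and -2.30, KIT at -1.90 and -1.25, and ITGA6 at -1.76. Where Cy5 was not well above background on any array of a line (ABCC3 in both lines, KIT and ITGA6 with miR-421), these values are no measured sizes, and the bounds given above hold. SOX2 was at -1.81 in the miR-338-5p line on the image software's scale.
On the same scale CD24 was at -3.44 and POU5F1 at -2.41 in the miR-421 line, LGR4 at -1.30, KLF4 at 1.61 and HES1 at 1.66, and PSCA was at 1.68 and 1.80. TERT was at -1.57 in the miR-338-5p line. HES1 and PSCA are dim probes as well, and their values too were larger on this scale. No called member changed direction between the scales. Tested with limma on the image software's ratios, 3 calls missed the threshold: SOX2 (adjusted p = 0.108) and NES (0.0517) in the miR-338-5p line, and TERT (0.0751) with miR-421.

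**Figure D5:**
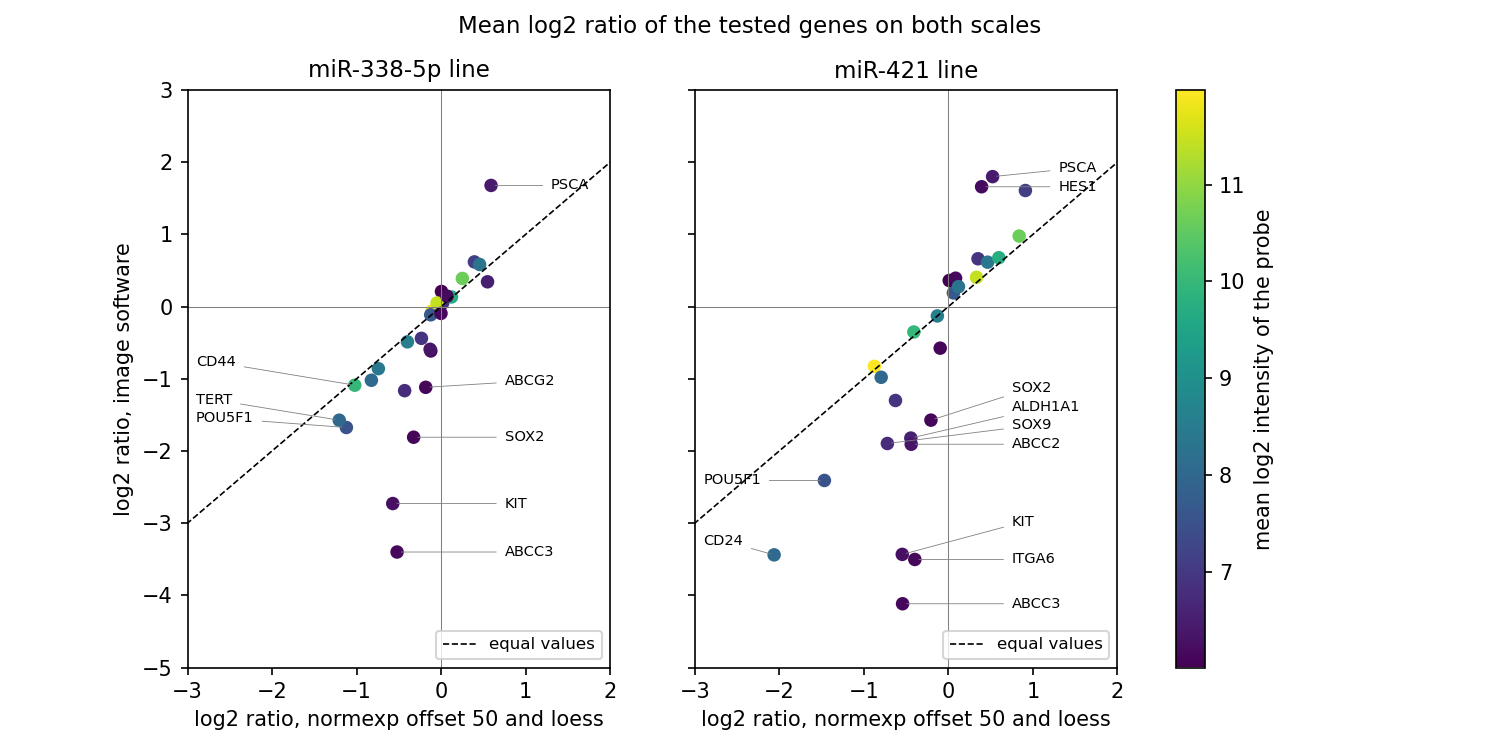
Mean log2 ratio of each tested member after normexp correction with an offset and loess (x axis) against the image software's own ratio (y axis), by line; colour is the mean log2 intensity of the probe and the dashed line marks equal values. In the miR-338-5p line the dim probes of ABCC3 and KIT lie farthest from the dashed line, at -0.52 against -3.40 and at -0.57 against -2.73, and in the miR-421 line those of ABCC3 (-0.54 against -4.12) and ITGA6 (-0.40 against -3.50).

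Other genes of the same families gave context, and their counts are descriptions without a set test. Over all genes 9.62% passed in the miR-338-5p line (5.4% lower, 4.23% higher) and 23.7% in the miR-421 line (13.5% lower, 10.2% higher). The counts below are to be read beside these shares. Of 21 other pluripotency network genes 10 were tested, and 3 were higher and 0 lower in each line. KLF2, a factor of naive pluripotency, had means of 0.69 and 0.56 in the miR-338-5p and miR-421 lines. TFCP2L1 of the same network had means of 0.59 and 0.44. TBX3 rose in the miR-338-5p line (0.85 ± 0.31; limma adjusted p = 0.0159), and UTF1 in the miR-421 line (0.58 ± 0.38; 0.0379). No gene of this list was called lower.
Of 28 other ABC transporters tested, 0 rose and 3 fell in the miR-338-5p line, and 2 rose and 3 fell in the miR-421 line. ABCC11 had log2 ratios of 1.78, 1.78 and 1.86 in the miR-421 line (limma adjusted p = 0.00237), and 0.22, -0.33 and 0.25 in the miR-338-5p line. ABCG1, a cholesterol exporter, rose by 0.68 ± 0.07 in the miR-421 line. The antigen peptide transporters TAP1 and TAP2 fell there, by 0.49 and 1.01. ABCE1, a ribosome recycling factor that is no membrane transporter, fell by 0.68 and 0.73 in the 2 lines, and ABCF1 (by 0.54) and ABCC8 (by 0.34) fell in the miR-338-5p line.
Of 15 other aldehyde dehydrogenases tested, only ALDH3B1 passed in the miR-338-5p line (-0.26; limma adjusted p = 0.0483). In the miR-421 line 3 rose and 0 fell: ALDH4A1 by 0.90, ALDH3A1 by 0.85 and ALDH6A1 by 0.53.

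Of 31 other Notch pathway genes tested, 3 rose and 1 fell in the miR-338-5p line, and 7 rose and 4 fell in the miR-421 line. NCSTN, nicastrin of the protease that cleaves Notch, was above 0 on all 6 arrays, at 0.52, 0.66 and 0.58, then 0.63, 0.48 and 0.67 (limma adjusted p = 0.00943 and 0.00521). NUMBL, a Numb-like adaptor, was below 0 on all 6, with means of -0.65 and -0.44. The ligands DLL1 (0.48) and DLL3 (0.42) rose in the miR-338-5p line. In the miR-421 line the HES relative HES4 rose by 1.12, the coactivator MAML1 by 0.91 and the ligand JAG2 by 0.69. HES5 fell there by 0.53, NRARP by 0.50 and NUMB by 0.46, so known Notch targets were called in both directions.
Of 13 other R-spondin, LGR and Wnt genes tested, ASCL2 rose in the miR-338-5p line (0.95, 0.37 and 1.38; limma adjusted p = 0.0351). In the miR-421 line the co-receptor LRP6 fell by 0.98 and CTNNB1, beta-catenin, by 0.43. Of 6 other telomerase genes tested, none passed in the miR-338-5p line. In the miR-421 line DKC1, GAR1 and NOP10 of the telomerase RNA-binding complex fell by 0.56, 0.63 and 0.23, and TEP1 rose by 0.64.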

How the data were processed

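Gene expression was read on 6 two-colour Agilent arrays on 1 slide. Per the file headers, the authors' scanner files came from Feature Extraction 11.5.1.1 and hold the intensity of each spot in each dye, flags for spots above background, saturated or outlying, and a log10 ratio of Cy5 over Cy3. The authors' deposited table gives log2 ratios; its direction matched the scanner ratios (r 0.962 to 0.969), and its column medians ran from -0.163 to 0.0339, so its centring is unknown. Probe coordinates are hg19, per the submitters' files.

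Intensities were corrected by normexp with offset 50 and normalized by loess in limma 3.58.1 (R 4.3.3), without control spots or outlier spots; spots of a probe were averaged. A probe was kept where Cy3 or Cy5 was well above background on 3 or more of the 6 arrays (27497 of 58201). A single limma fit took all 6 arrays, with a mean for each line; each mean was tested against 0, and the 2 against each other, with p-values adjusted by the Benjamini-Hochberg method over all probes, two-sided, threshold 0.05. Each ratio holds the control signal of its own array, so the control's spread is part of the spread of the ratios and was not estimated apart from it. With 3 arrays a line the precision is limited. The fit was tested on simulated data. All 35 members are named; of the other family lists, up to 3 rises and 3 falls per list and line were named by size. The members and lists were chosen with earlier results of these data known. Alternatives changed the background correction, normalization, filter, probe rule, variance model, scale and arrays. Of 52 member probes, the accessions of 48 were in the RefSeq table, and 0 had changed symbol. Some marker genes are not reported here.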

Additional observations from a re-analysis of the deposited data

Results flagged for a closer look

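NES differed between the lines by -1.21 on the log2 scale: all 3 miR-338-5p arrays lay below 0 and all 3 miR-421 arrays above 0. In limma's test of the difference the adjusted p was 0.103.

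The control's own signal stood apart on 1 array for each of 2 members. For KIT the log2 Cy3 level on the array of miR-421 replicate 1 was 6.39, against 6.53 to 6.59 on the other 5. For NOTCH1 the Cy3 level on the array of the miR-421 pool was 11.7, against 9.8 to 10.4 on the others. Chance sets a sample apart in this way in about 1 of 20 groups, and 27 members were looked at.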

How the results depend on the processing

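The number of members past the threshold in limma was the least stable result. For miR-338-5p it was 6, and it was 2 with median centring in place of loess, 2 with no filter on dim probes (all 35 genes tested), 0 with the line's own 3 arrays alone, and 0 to 6 when 1 array was left out. For miR-421 it was 11, and it was 6 with median centring, 4 with no filter, and 1 to 10 when 1 array was left out. Leaving out an array removes samples and, with it, degrees of freedom; the cause of the other changes was not tested. The remaining settings gave 4 to 7 and 10 to 15. The share of all genes that passed is given for the main fit only, so whether calls over all genes moved alike is not shown. The members' median log2 ratio in the miR-338-5p line, -0.123, was -0.414 when background was subtracted, -0.44 on the image software's scale and -0.44 in the authors' deposited table. In the miR-421 line it was -0.13, and -0.392, -0.352 and -0.214 under those 3, -0.0225 with no filter, and -0.275 to -0.026 when 1 array was left out. No member passed in the difference between lines under any setting run, with 0 of 27 under a replicate block. Only the numbers 1 and 2 are shared by the lines, and same-numbered arrays deviated with correlations of -0.141 and -0.212, so the numbers gave no sign of pairing.

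No mean past the threshold changed sign under these settings. Means and differences that did not pass changed sign as follows. With median centring, KITLG (-0.12), ALDH1A3 (-0.0108) and NOTCH3 (-0.07) turned in the miR-338-5p line, ITGB1 (-0.0526) and ABCC5 (-0.0102) in the miR-421 line, and the ABCC3 difference (-0.0113). ABCC5 also turned with the mean of its probes (-0.0312). ABCB6 in the miR-338-5p line turned with the image software's ratio (0.05) and the authors' deposited table (0.0482). Differences between lines turned for KIT (0.151 when background was subtracted, 0.704 on the image software's scale), for PSCA (-0.0196, -0.122, and -0.123 in the authors' deposited table), for ALDH1A3 (0.253) and NOTCH1 (0.141) in the authors' deposited table, and for TERT (0.0627) and NOTCH2 (0.0187) under the replicate block.

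Leaving out 1 array turned the following means, given as the lowest and highest value. In the miR-338-5p line they were MYC (-0.211 to 0.0268), KITLG (-0.0453 to 0.0762), ALDH1A1 (-0.353 to 1.05), ALDH1A3 (-0.00671 to 0.0189), ABCB6 (-0.207 to 0.231), ABCC1 (-0.0743 to 0.048), ABCC2 (-0.39 to 0.0719), NOTCH3 (-0.1 to 0.375) and HES1 (-0.0433 to 0.144). For miR-421 they were CD44 (-0.649 to 0.0344), ITGB1 (-0.028 to 0.125), ALDH1A3 (-0.00656 to 0.0392), ABCC5 (-0.026 to 0.215) and NOTCH2 (-0.294 to 0.172). Of the differences between lines they were POU5F1 (-0.137 to 0.68), SOX9 (-0.03 to 0.63), KIT (-0.0938 to 0.0614), CD44 (-1.06 to 0.0753), PSCA (-0.0651 to 0.191), ALDH1A3 (-0.0349 to 0.0109), ABCC3 (-0.0233 to 0.0529) and ABCC5 (-0.0446 to 0.549). Dim probes limit the rest: for ABCC3, and for KIT and ITGA6 in the miR-421 line, Cy5 signal gives only a bound, and 8 members gave no testable signal.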
